A study of Mus musculus with 12 samples.

Results

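Matricellular proteins were followed at the transcript level through 4 populations of fibroblasts sorted from newborn mouse skin. The list held 10 genes: the thrombospondins Thbs1, Thbs2, Thbs3 and Thbs4, the calcification inhibitor Mgp, the SPARC-related genes Smoc1 and Smoc2, and Sparc, Tnc and Postn. It was chosen on the values of these same arrays, because Thbs4, Mgp and Smoc1 had their highest mean log2 level in reticular cells. Of the 10, 9 had a probe set with 1 gene symbol among the 17097 genes of the array, and Thbs1 was not analysed here. Differences that involve reticular cells are therefore given as a description, with a standard error (SE) and no test, and the members are tested only in the 3 pairs of populations without reticular cells. The choice used the level of every population, though not the differences among those 3. Genes outside the list are tested in all 6 pairs. No filter on low values was used, so all 9 measured genes entered every fit.

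Matricellular proteins are secreted into the matrix but do less to build its fibres than to regulate how cells, growth factors and collagen meet there. Thrombospondins are large calcium-binding glycoproteins. Thbs1 and Thbs2 form trimers, restrain angiogenesis and bind the receptors Cd36 and Cd47, while Thbs3 and Thbs4 belong with Comp to the pentameric subgroup that lacks the properdin-like repeats. Mgp is a small vitamin K-dependent protein that inhibits calcification and binds bone morphogenetic proteins, and Smoc1 and Smoc2 share with Sparc an extracellular calcium-binding domain. Sparc and Postn act in collagen fibril assembly and cross-linking, and Tnc is a large modular glycoprotein of embryonic and wounded mesenchyme.

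The cells came from 3 female littermates aged 2 days, and no strain is named in the labels. From each animal 4 populations were taken, so each has n = 3 arrays, and all 4 shared a gate for Pdgfra and CD34 at the surface without CD45, CD117, CD31 or EpCam. Papillary cells were CD26+ Dlk1- Sca1-, reticular cells were CD26- Dlk1+ Sca1-, and the remaining populations, named pre-adipogenic in the labels, were CD26- Dlk1+ Sca1+ and CD26- Dlk1- Sca1+. Each sample was RNA of 4500 cells amplified over 21 cycles, and since the animals were 1 litter, p-values measure the spread between littermates. The design compares the populations with each other, and each population enters 3 of the 6 pairs, so comparisons that share a population are not independent of each other.

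Levels are log2 values, on which 1 unit is a doubling, and array medians were 6.21 to 6.34. Sorting genes were read first. Dpp4, which encodes CD26, had a mean of 10.61 in papillary cells and 6.26 to 6.37 elsewhere, and Dlk1 had 9.97, 12.97, 12.86 and 11.39 in papillary, reticular, Dlk1+ Sca1+ and Dlk1- Sca1+ cells, all above the array medians. All 6 fibroblast markers lay above the array median in every population, and the transcript of the leukocyte marker CD45, Ptprc, had population means of 3.88 to 3.94. Of 7 immune markers, however, 3 lay above the array median in every population, among them Cd68 with means of 7.01 to 7.83. Pecam1, the transcript of CD31, had means of 7.02 to 8.15, and was at 8.74 on the Dlk1+ Sca1+ array of animal 2. Of the 12 arrays, 4 were marked for high levels in marker lists of other cells. The arrays of animal 2 from reticular and from Dlk1+ Sca1+ cells were highest of their populations in mural cell genes, and the Dlk1- Sca1+ array of animal 1 had a mean of 9.47 over 7 epidermal genes, against 6.99 and 6.96 in animals 2 and 3. The reticular array of animal 1 had 7.96 over the same genes, against 6.38 and 6.52. That of Dlk1+ Sca1+ cells from animal 2 had 8.09, against 7.53 and 6.86 in animals 1 and 3. Papillary cells of animal 1, not among the 4, had 7.24, against 6.75 and 6.11. Their Krt5 was at 10.92, against 8.28 and 8.18. Values without the 4 marked arrays are given where they touch a result. In such bulk samples, fewer cells that express a gene and less RNA per cell cannot be told apart.

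The start regions of 3 thrombospondin genes are shown, of which Thbs4 had another order of means than Thbs2 and Thbs3, as described next. Each line gives the 250 bases before the transcription start, 5′ to 3′ on the strand of the gene, from RefSeq on GRCm38.p6. These are chr17:14694263-14694512 on the minus strand for Thbs2, chr3:89214930-89215179 on the plus strand for Thbs3, and chr13:92794819-92795068 on the minus strand for Thbs4. Capitals mark matches to the motifs searched on both strands.
Thbs2: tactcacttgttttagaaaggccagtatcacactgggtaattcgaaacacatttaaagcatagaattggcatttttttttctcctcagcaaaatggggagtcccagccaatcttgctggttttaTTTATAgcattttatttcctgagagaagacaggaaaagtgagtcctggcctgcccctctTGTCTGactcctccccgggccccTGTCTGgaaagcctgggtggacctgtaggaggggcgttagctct
Thbs3: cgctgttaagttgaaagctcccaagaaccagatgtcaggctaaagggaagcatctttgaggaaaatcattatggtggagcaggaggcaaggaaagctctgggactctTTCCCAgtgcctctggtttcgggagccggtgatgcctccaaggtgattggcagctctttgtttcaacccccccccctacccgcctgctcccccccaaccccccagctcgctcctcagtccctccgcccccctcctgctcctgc
Thbs4: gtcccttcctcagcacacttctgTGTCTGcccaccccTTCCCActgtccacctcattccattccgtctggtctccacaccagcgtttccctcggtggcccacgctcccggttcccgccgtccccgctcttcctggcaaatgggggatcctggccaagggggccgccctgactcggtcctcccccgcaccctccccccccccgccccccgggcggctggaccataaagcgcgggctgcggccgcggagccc

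GC content was 46.8% in the Thbs2 window, 58.8% for Thbs3 and 70.8% for Thbs4, against a median of 52.4% over the 32851 windows of this length in the RefSeq table. The motifs were TATAAA, the TATA box, found in 12.4% of all windows, TGGGAA, an RBPJ core, in 21.6%, CAGACA, a SMAD-binding element, in 17.1%, CAGGTG, an E-box, in 17.2%, and TGACTCA, an AP-1 site, in 4.46%. All matches in the 3 windows lay on the opposite strand and did not overlap. Thbs2 held TATAAA at 126 to 121 bases before the start and CAGACA at 67 to 62 and at 44 to 39. Thbs3 held TGGGAA at 143 to 138, and Thbs4 held TGGGAA at 213 to 208 and CAGACA at 227 to 222. The letters of CAGGTG and TGACTCA were in none of these 3 windows. A match of letters shows no binding, and the arrays hold no measurement of it. Of the 10 genes, 6 were in the table. Mgp and Smoc1, whose windows had been planned with that of Thbs4, were not among them.

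Thbs4 set reticular cells most clearly apart, and it ran down in 2 steps through the other populations. Thbs4 was at 11.10, 11.53 and 11.26 in reticular cells of animals 1, 2 and 3, and at 8.77, 8.50 and 8.46 in Dlk1+ Sca1+ cells. It was at 6.08, 6.33 and 6.44 in papillary cells and at 6.07, 6.28 and 5.66 in Dlk1- Sca1+ cells, close to the array medians. Every reticular array was above every Dlk1+ Sca1+ array, and every Dlk1+ Sca1+ array was above all 6 others, while papillary and Dlk1- Sca1+ values overlapped. Reticular cells had 32.3-fold more Thbs4 than papillary cells, with a log2 difference of papillary minus reticular of -5.01 ± 0.16 (SE, n = 3). They had 6.59-fold more than Dlk1+ Sca1+ cells (-2.72 ± 0.16, Dlk1+ Sca1+ minus reticular) and 39.2-fold more than Dlk1- Sca1+ cells (-5.29 ± 0.16). Without the reticular array of animal 2, these differences were -4.90, -2.60 and -5.18, and without that of animal 1 they were -5.11, -2.82 and -5.39.

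In the pairs without reticular cells, papillary cells had 4.90-fold less Thbs4 than Dlk1+ Sca1+ cells (-2.29 ± 0.16, limma adjusted p = 1.75e-07, lower in 3 of 3 animals). In Dlk1- Sca1+ cells it was 5.95-fold lower than in Dlk1+ Sca1+ cells (-2.57 ± 0.16, limma adjusted p = 1.52e-06, 3 of 3 animals). Without the Dlk1+ Sca1+ array of animal 2 these differences were -2.33 and -2.61. Papillary minus Dlk1- Sca1+ was 0.28 ± 0.16 (limma adjusted p = 0.258), with 0.78 of difference in animal 3 and 0.01 and 0.05 in animals 1 and 2.

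The other thrombospondins divided the populations at another place. Thbs3 was at 7.59, 7.61 and 7.58 in papillary cells of animals 1, 2 and 3, and between 9.42 and 10.31 on the remaining 9 arrays. Papillary cells thus lay well below the rest, whereas reticular (mean 10.02 ± 0.13 SD) and Dlk1+ Sca1+ cells (10.19 ± 0.13) overlapped and Dlk1- Sca1+ cells (9.50 ± 0.10) were below both. Papillary cells had 6.05-fold less Thbs3 than Dlk1+ Sca1+ cells (-2.60 ± 0.09, limma adjusted p = 2.57e-10) and 3.76-fold less than Dlk1- Sca1+ cells (-1.91 ± 0.09, adjusted p = 4.55e-09). Dlk1- Sca1+ cells had 1.61-fold less than Dlk1+ Sca1+ cells (-0.69 ± 0.09, adjusted p = 0.000360). All 3 differences had the same sign in 3 of 3 animals.

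Thbs2, whose loss in mice is known to disturb dermal collagen fibrils, had the same order of means over a much smaller range. Thbs2 was at 11.69, 11.57 and 11.50 in papillary cells, 12.16, 12.15 and 12.04 in reticular cells, 12.19, 12.13 and 12.19 in Dlk1+ Sca1+ cells and 11.76, 11.86 and 11.81 in Dlk1- Sca1+ cells. By this probe set, reticular and Dlk1+ Sca1+ values overlapped, and the other pairs did not. Papillary minus Dlk1+ Sca1+ was -0.58 ± 0.07 (limma adjusted p = 3.73e-05) and Dlk1- Sca1+ minus Dlk1+ Sca1+ was -0.36 ± 0.07 (adjusted p = 0.00797). Papillary minus Dlk1- Sca1+ was -0.22 ± 0.07 (limma adjusted p = 0.0370). That last call is the weakest of the list: without the Dlk1- Sca1+ array of animal 1 the adjusted p was 0.0522, and it was not called under 10 of 23 alternative settings. By a second probe set of Thbs2, reticular values (11.17 to 11.28) overlapped Dlk1- Sca1+ values (10.92 to 11.25). Dlk1+ Sca1+ values (11.30 to 11.40) lay above both. With it, Dlk1- Sca1+ minus Dlk1+ Sca1+ was -0.30 and not called (limma adjusted p = 0.0717). Papillary minus Dlk1- Sca1+ was -0.38 (limma adjusted p = 0.00741) and papillary minus Dlk1+ Sca1+ -0.68 (7.97e-05).

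**Figure D1:**
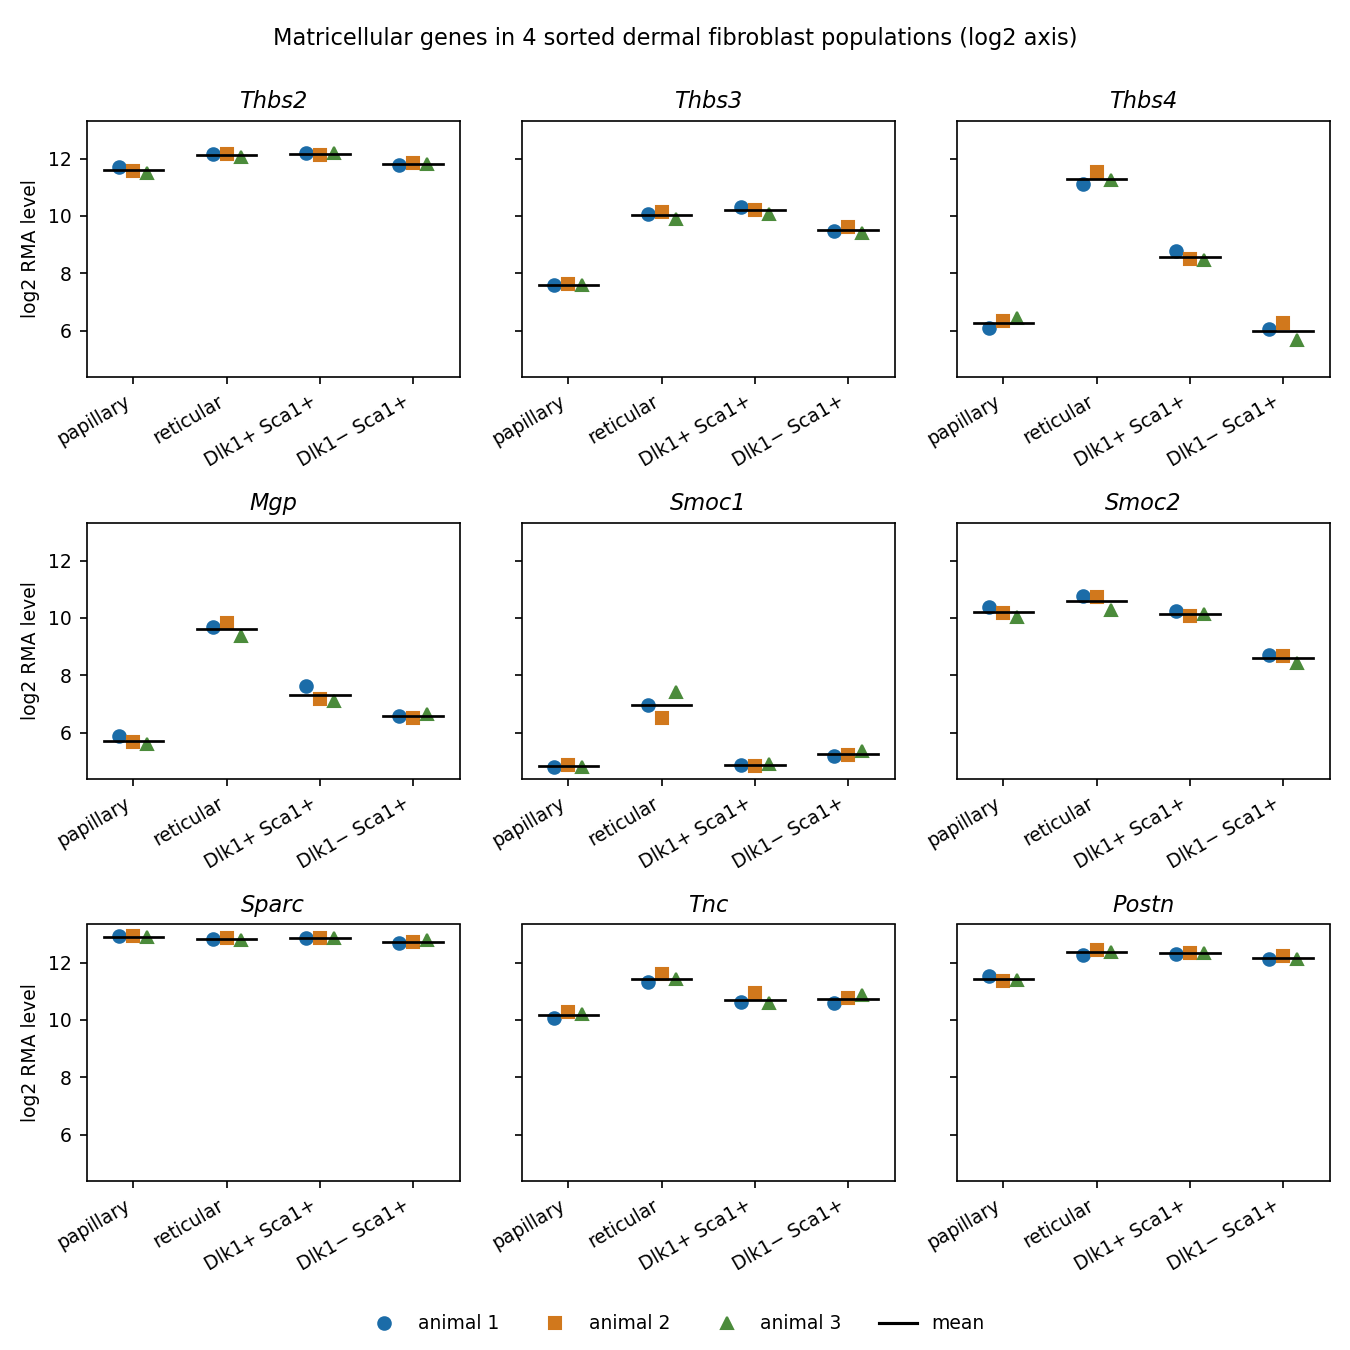
Each panel plots 1 gene, with the log2 RMA level on the vertical axis and the 4 populations on the horizontal axis, points for animals 1 to 3 and a bar for their mean. Thbs4 falls from a mean of 11.30 in reticular to 6.28 in papillary cells, Thbs3 is low in papillary cells alone (7.59), and Sparc spans 12.73 to 12.90.

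Mgp stepped down from reticular cells like Thbs4, but its low populations were not level with each other. Mgp was at 9.68, 9.83 and 9.36 in reticular cells, 7.62, 7.17 and 7.10 in Dlk1+ Sca1+ cells, 6.58, 6.51 and 6.64 in Dlk1- Sca1+ cells and 5.87, 5.68 and 5.62 in papillary cells. No 2 populations overlapped. Reticular cells had 14.9-fold more Mgp than papillary cells (-3.90 ± 0.14, papillary minus reticular), 5.02-fold more than Dlk1+ Sca1+ cells and 8.26-fold more than Dlk1- Sca1+ cells. Papillary minus reticular was -3.80 without the reticular array of animal 2 and -3.87 without that of animal 1. Papillary cells had 2.98-fold less Mgp than Dlk1+ Sca1+ cells (-1.57 ± 0.14, limma adjusted p = 2.11e-06) and 1.81-fold less than Dlk1- Sca1+ cells (-0.85 ± 0.14, adjusted p = 0.000515). Dlk1- Sca1+ cells had 1.65-fold less than Dlk1+ Sca1+ cells (-0.72 ± 0.14, limma adjusted p = 0.00717). Each difference had 1 sign in 3 of 3 animals, and the last one had adjusted p = 0.0773 with animal 1 left out and 0.0722 with animal 2 left out.

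Smoc1 and Smoc2, a pair of SPARC-related secreted proteins of which Smoc1 is known to modulate bone morphogenetic protein signalling, did not share a pattern. Smoc1 was at 6.97, 6.50 and 7.42 in reticular cells and between 4.79 and 5.35 on the other 9 arrays. Its probe set was among the dimmest 40% of genes, and differences near the low end of the scale are understated. Reticular cells had 4.42-fold more Smoc1 than papillary cells (-2.14 ± 0.16, papillary minus reticular), 4.25-fold more than Dlk1+ Sca1+ cells and 3.27-fold more than Dlk1- Sca1+ cells. Reticular values had the widest spread of the gene (SD 0.46), and the array of animal 2, highest of its population in Thbs4 and Mgp, was the lowest in Smoc1.

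In the tested pairs, Smoc1 did not pass. Papillary minus Dlk1+ Sca1+ was -0.06 ± 0.16 (limma adjusted p = 0.872), papillary minus Dlk1- Sca1+ was -0.43 ± 0.16 (adjusted p = 0.0731) and Dlk1- Sca1+ minus Dlk1+ Sca1+ was 0.38 ± 0.16 (adjusted p = 0.235). The 3 Dlk1- Sca1+ values of Smoc1, 5.20, 5.21 and 5.35, were nevertheless above all 6 papillary and Dlk1+ Sca1+ values. The SE is shared by all populations and carries the spread of the reticular arrays: without the reticular array of animal 2, papillary against Dlk1- Sca1+ had adjusted p = 0.00795 and Dlk1- Sca1+ against Dlk1+ Sca1+ had 0.0489. With the animal as a block, papillary against Dlk1- Sca1+ had adjusted p = 0.0491.

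Smoc2 was instead marked by a low level in Dlk1- Sca1+ cells. Smoc2 was at 8.69, 8.66 and 8.44 there, at 10.39, 10.18 and 10.02 in papillary cells, at 10.76, 10.74 and 10.27 in reticular cells and at 10.23, 10.07 and 10.15 in Dlk1+ Sca1+ cells. The highest Dlk1- Sca1+ value was below every other array, and papillary values overlapped both reticular and Dlk1+ Sca1+ values. Papillary cells had 3.03-fold more Smoc2 than Dlk1- Sca1+ cells (1.60 ± 0.13, limma adjusted p = 1.05e-06). Dlk1- Sca1+ cells had 2.93-fold less than Dlk1+ Sca1+ cells (-1.55 ± 0.13, adjusted p = 1.97e-05), and papillary minus Dlk1+ Sca1+ was 0.05 ± 0.13 (adjusted p = 0.871). A second probe set of Smoc2 gave 1.27 for papillary minus Dlk1- Sca1+ and -1.22 for Dlk1- Sca1+ minus Dlk1+ Sca1+.

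Postn, a fasciclin-domain protein of collagen-rich tissues, was low in papillary cells alone, as Thbs3 was. Postn was at 11.54, 11.37 and 11.39 in papillary cells and between 12.11 and 12.42 on the other 9 arrays. Papillary cells had 1.85-fold less than Dlk1+ Sca1+ cells (-0.89 ± 0.07, limma adjusted p = 8.56e-07) and 1.65-fold less than Dlk1- Sca1+ cells (-0.73 ± 0.07, adjusted p = 6.07e-06). Dlk1- Sca1+ minus Dlk1+ Sca1+ was -0.16 ± 0.07 (adjusted p = 0.252). Against reticular cells, papillary cells had 1.90-fold less Postn.

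Tnc was highest in reticular and lowest in papillary cells by the probe set used. Tnc was at 11.33, 11.59 and 11.41 in reticular cells, 10.07, 10.28 and 10.20 in papillary cells, 10.61, 10.93 and 10.58 in Dlk1+ Sca1+ cells and 10.59, 10.78 and 10.86 in Dlk1- Sca1+ cells. The last pair overlapped and differed by 0.04 ± 0.11 (limma adjusted p = 0.945). Papillary cells had less than Dlk1+ Sca1+ (-0.52 ± 0.11, limma adjusted p = 0.00304) and Dlk1- Sca1+ cells (-0.56 ± 0.11, adjusted p = 0.00203). With animal 3 left out the latter had adjusted p = 0.0538.

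A second, dimmer probe set of Tnc placed Dlk1- Sca1+ cells first, at 7.74, 7.48 and 8.33, against 7.22, 7.70 and 7.57 in reticular cells. By it, Dlk1- Sca1+ minus reticular was 0.35, where the probe set used gave -0.70. The position of reticular cells in the order of Tnc thus differs between its probe sets. Both called Tnc lower in papillary cells, by the second at -0.96 against Dlk1+ Sca1+ (limma adjusted p = 0.00246) and at -1.58 against Dlk1- Sca1+ cells (adjusted p = 4.96e-05).

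Sparc, an abundant collagen-binding protein of fibroblasts, was close to the highest deposited values in all populations. Sparc was at 12.92, 12.91 and 12.88 in papillary cells, 12.82, 12.85 and 12.77 in reticular cells, 12.86, 12.86 and 12.85 in Dlk1+ Sca1+ cells and 12.68, 12.73 and 12.77 in Dlk1- Sca1+ cells. The means spanned 0.18. Sparc was called in none of the 3 tested pairs: papillary minus Dlk1+ Sca1+ was 0.05 ± 0.06 (limma adjusted p = 0.687), papillary minus Dlk1- Sca1+ 0.18 ± 0.06 (0.0526) and Dlk1- Sca1+ minus Dlk1+ Sca1+ -0.13 ± 0.06 (0.287). With the animal as a block the second of these had adjusted p = 0.0323. At signals this near the top of the scale, these values do not show equal levels.

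**Figure D2:**
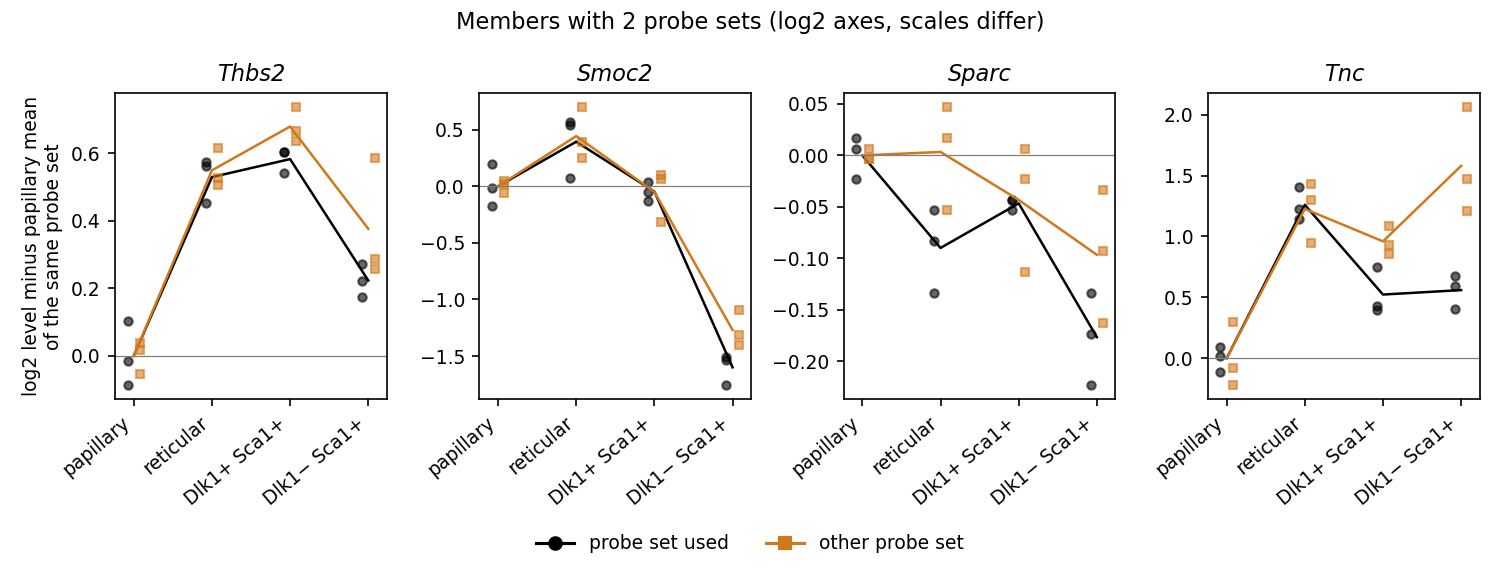
For the 4 genes with 2 probe sets, points give each array's log2 level minus the papillary mean of the same probe set, and lines join the population means, in black for the probe set used and orange for the other. The lines run together for Thbs2 and Smoc2, while those of Tnc part in Dlk1- Sca1+ cells (0.56 and 1.58) and those of Sparc differ by less than 0.2.

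Ranked by the lead of the reticular mean over the next highest population, Thbs4 was 1 and Mgp 2 among the 17097 genes, with leads of 2.72 and 2.33. Smoc1 was 6 with 1.71. Tnc was 101 with 0.70, and Smoc2 was 299 with 0.39, where reticular and papillary values overlapped. Postn led by 0.03, less than its SE. Thbs2 and Thbs3 had their highest mean in Dlk1+ Sca1+ cells and Sparc in papillary cells. For Thbs2, Dlk1+ Sca1+ minus reticular was 0.05 ± 0.07, less than its SE. By a second probe set of Sparc the highest mean was that of reticular cells, 12.80, against 12.79 in papillary cells. These ranks rest on the values that chose the list.

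**Figure D3:**
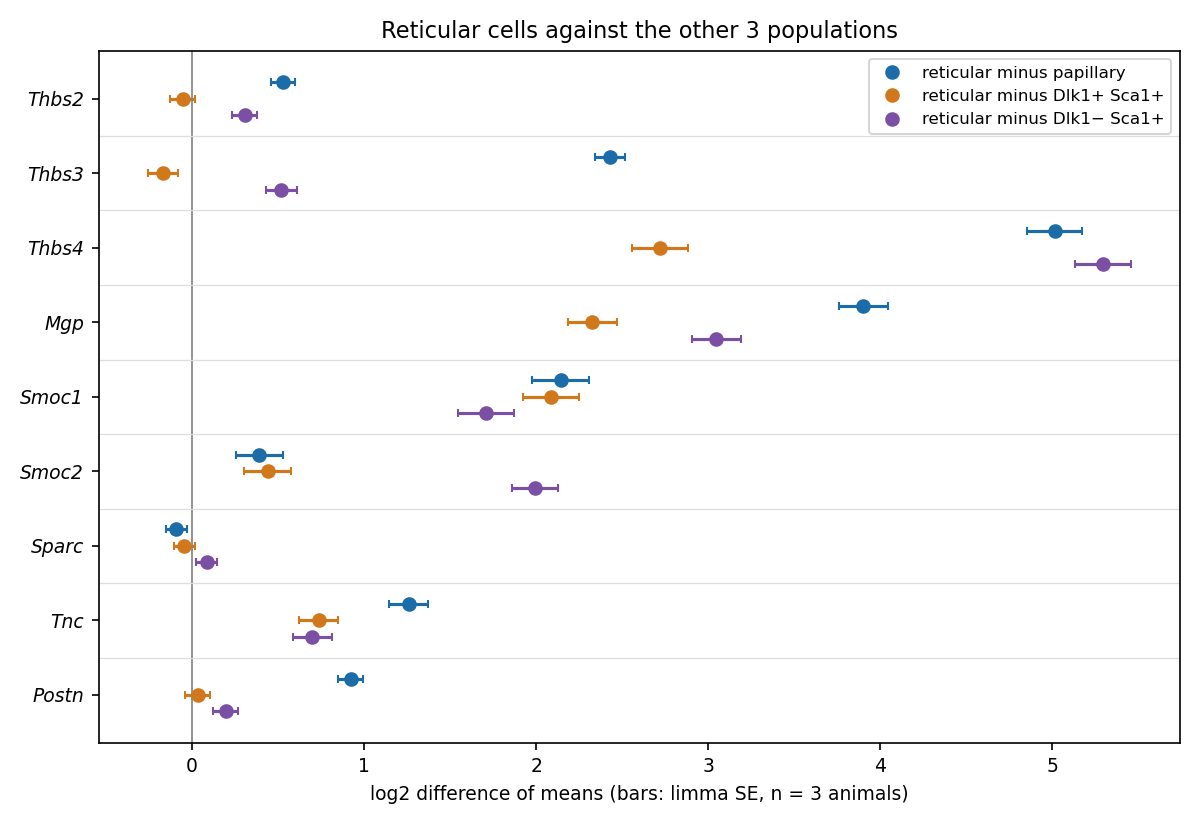
Points give the log2 difference of the reticular mean minus the papillary, Dlk1+ Sca1+ and Dlk1- Sca1+ mean for each gene, with bars for limma's SE (n = 3 animals). Thbs4, Mgp and Smoc1 lie to the right of 1.5 in all 3 comparisons, while Thbs2, Thbs3 and Sparc lie left of 0 against Dlk1+ Sca1+ cells, Thbs2 and Sparc by less than their SE.

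Among the 3 tested pairs, papillary cells had less of most of these transcripts. Papillary against Dlk1+ Sca1+ cells had 6 of 9 called lower (Thbs2, Thbs3, Thbs4, Mgp, Tnc, Postn) and 0 higher, where 13.9% of all 17097 genes were called lower and 14.1% higher. Papillary against Dlk1- Sca1+ cells had 5 lower (Thbs2, Thbs3, Mgp, Tnc, Postn) and 1 higher (Smoc2), against 13.3% and 13.1% of all genes. Dlk1- Sca1+ against Dlk1+ Sca1+ cells had 5 lower (Thbs2, Thbs3, Thbs4, Mgp, Smoc2) and 0 higher, against 4.13% and 3.23%. The median sizes of the 9 differences were 0.583, 0.56 and 0.377, beside 0.14, 0.137 and 0.0933 over all genes. The list was picked with results of these arrays known, so its shares cannot be read as typical of matricellular genes.

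**Figure D4:**
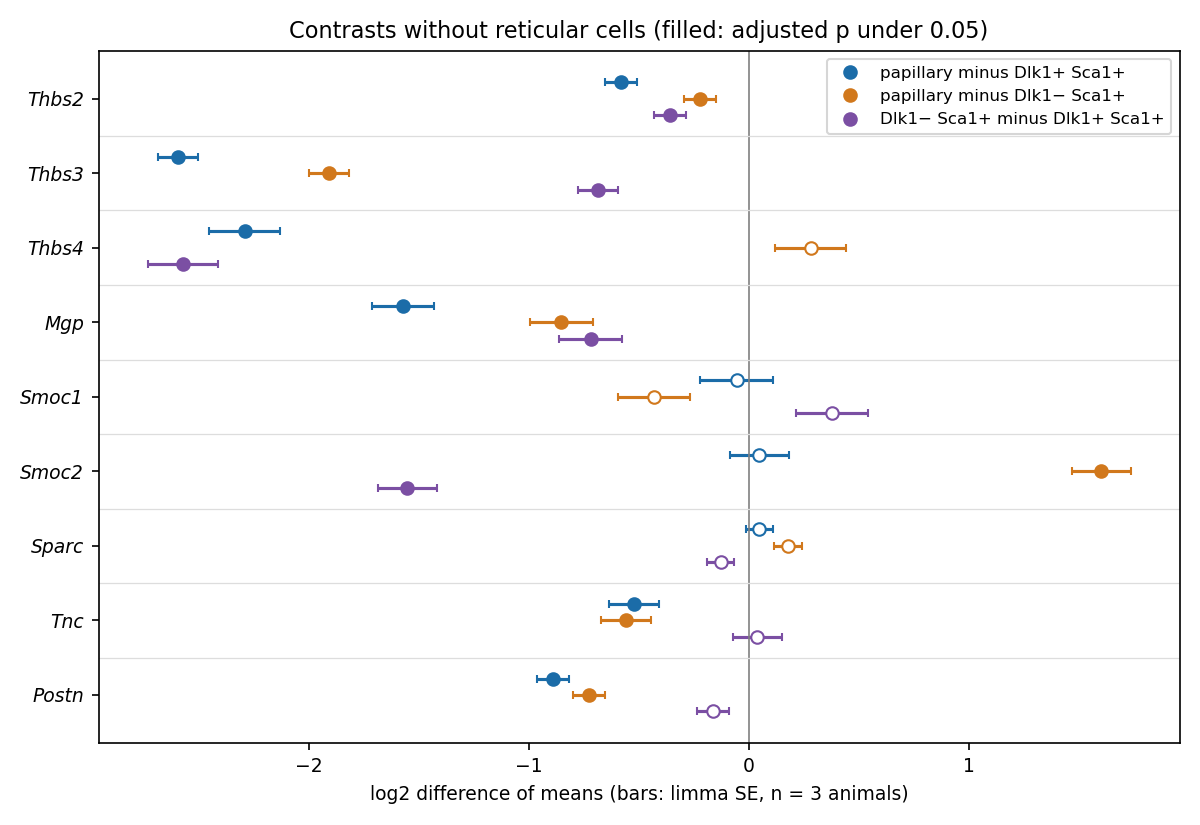
Points give log2 differences of means for the 3 tested pairs with bars for limma's SE, filled where the adjusted p was under 0.05. Thbs3 is lower in papillary cells in both pairs (-2.60 and -1.91), Thbs4 is highest in Dlk1+ Sca1+ cells of the 3 (-2.29 and -2.57), and Smoc2 alone has a filled point right of 0 (1.60).

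Some marker genes of other cells moved with Thbs4 and Mgp. Of 7 measured mural cell markers, 5 were highest in reticular cells, and the list's mean level was 7.70 to 8.57 on reticular, 7.14 to 7.95 on Dlk1+ Sca1+, 6.88 to 7.19 on Dlk1- Sca1+ and 6.37 to 6.50 on papillary arrays. Rgs5, a pericyte gene, was at 7.93, 9.52 and 6.54 in reticular cells of animals 1, 2 and 3. Thbs4 in the same arrays was at 11.10, 11.53 and 11.26. Among other mural genes, Notch3 was at 9.99, 10.01 and 10.09 on these arrays and Kcnj8 at 8.35, 8.23 and 7.72, so the spread between animals differed from marker to marker. The mean of Kcnj8 was 8.10 in reticular and 7.95 in Dlk1+ Sca1+ cells. In Dlk1+ Sca1+ cells Rgs5 was at 8.98 in animal 2 and at 6.14 and 6.10 in the others, with Thbs4 at 8.50, 8.77 and 8.46 in that order. Myh11 there was at 8.37, 6.09 and 6.13 in the same order.

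Skeletal muscle markers were highest in reticular cells for 7 of 11 genes, with list means of 6.36 to 6.58 on reticular, 6.05 to 6.16 on Dlk1+ Sca1+, 5.70 to 5.84 on Dlk1- Sca1+ and 5.64 to 5.70 on papillary arrays. Myod1 and Ttn had their highest means in Dlk1+ Sca1+ cells (6.63 and 5.24, against 6.63 and 5.22 in reticular cells). Myh3 and Pax7 had theirs in papillary cells (5.93 and 5.09, against 5.91 and 4.93 in reticular cells). Acta1, skeletal muscle actin, was at 8.57, 8.20 and 7.71 in reticular and 7.06, 6.71 and 6.58 in Dlk1+ Sca1+ cells. The part of these cells in the levels of Thbs4 and Mgp was not tested. Of 4 tendon markers, 1 was highest in reticular cells, and the list means of 6.58 to 6.60 there lay within the range of Dlk1- Sca1+ arrays, 6.48 to 6.84. Tendon means were 6.41 to 6.69 on Dlk1+ Sca1+ arrays and 5.47 to 5.54 on papillary arrays. The mean of this list was thus low in papillary cells, as Thbs3, Postn and Mgp were. It was carried by Tnmd (5.91 in papillary cells, 7.78 to 9.21 elsewhere) and Fmod (6.31 and 7.36 to 8.32). Scx (5.56 and 5.71 to 5.87) and Mkx (4.26 and 4.31 to 4.39) differed little and lay below the array medians. The part of the list in those results was not tested. Of 8 cartilage markers, 3 were highest in reticular cells, whose list means were 5.51 to 5.72, below the array medians. On the reticular arrays the cartilage gene Col2a1 was at 6.27 to 6.63, Acan at 5.89 to 6.26 and Matn1 at 4.02 to 4.37. Means over the 4 populations ran from 6.30 to 6.42 for Col2a1, 5.97 to 6.11 for Acan and 4.13 to 4.17 for Matn1. Not all of this list was level. Sox9 had a mean of 6.47 in papillary cells and of 8.02 to 8.23 in the other populations. Hapln1 had its highest mean in reticular cells, 5.80, against 5.16 to 5.38 elsewhere. The part of cartilage cells in the levels of the members was not tested.

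**Figure D5:**
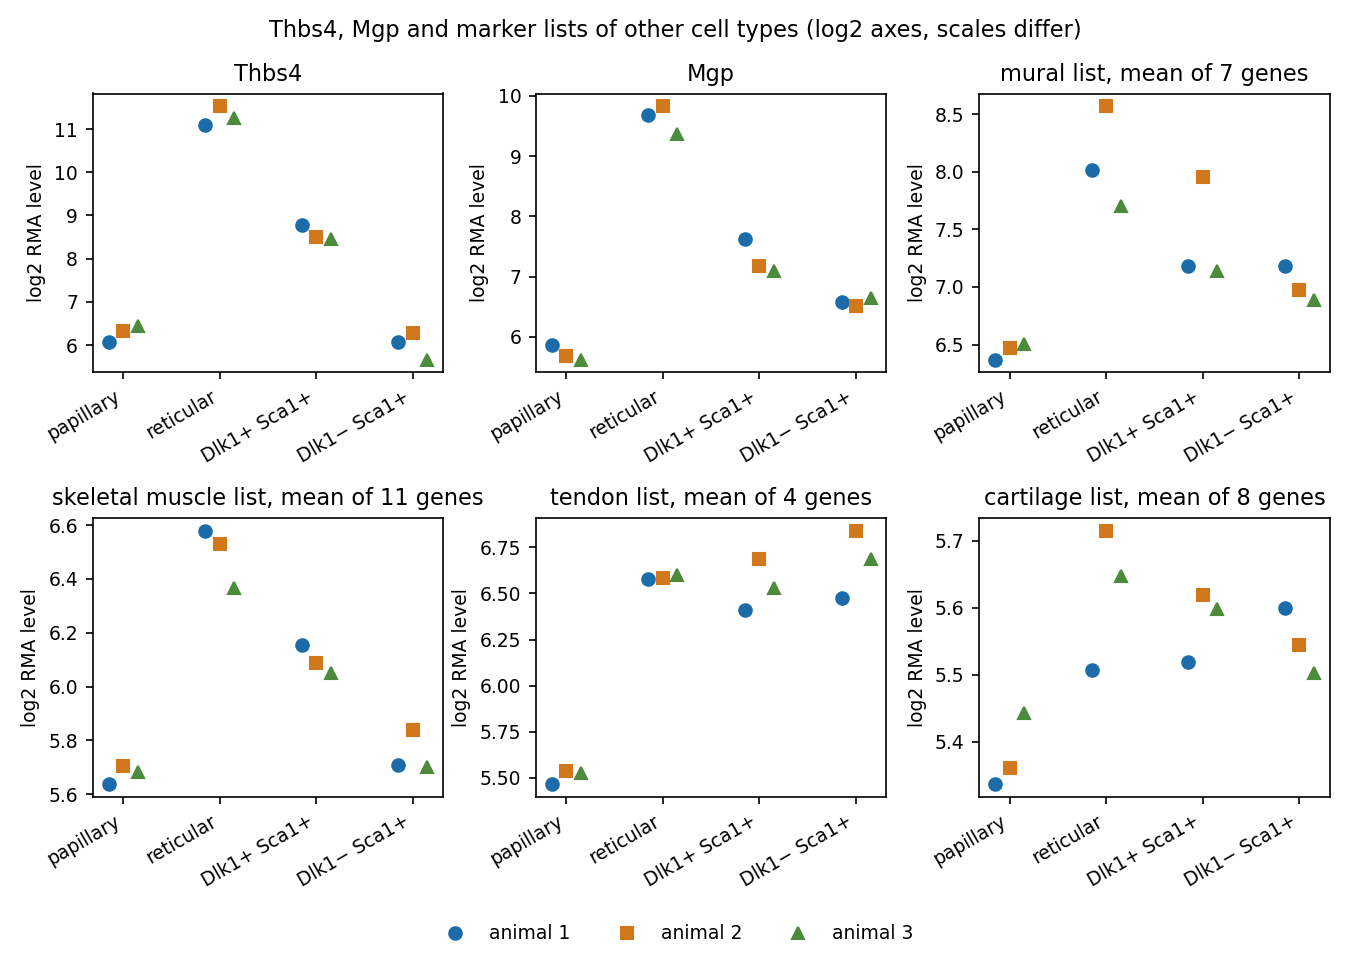
Panels plot the log2 RMA level of Thbs4 and Mgp and the mean log2 level of 4 marker lists for each animal and population, on axes that differ between panels. The mural list is highest on the reticular array of animal 2 (8.57), the muscle list on that of animal 1 (6.58), and the tendon list is not higher in reticular than in Dlk1- Sca1+ cells.

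Across the 12 arrays, the genes whose level ran most like Thbs4 were Npas3 (Pearson r = 0.987), Fgf1 (0.981), Ptgis (0.980) and Ppp1r9a (0.979). Those most like Mgp were Nr2f2 (0.981), Ptprd (0.979), Acta1 (0.975) and P3h2 (0.974), and those most like Smoc1 were Prex2 (0.966), Sox11 (0.958), Ankrd50 (0.955) and Sim2 (0.951). Within the list, Thbs4 and Mgp had r = 0.948, Thbs3 and Postn 0.984, Thbs2 and Thbs3 0.913, Thbs3 and Thbs4 0.616, and Smoc1 and Smoc2 0.322. The 12 arrays are 4 populations of 3 animals normalized together, so these values mostly describe the distances among 4 means and carry no test. The order of the levels could still differ: Sim2 and Smoc1 had a Spearman rho of 0.440.

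Other genes of the same biology were read from 5 lists of 67 genes, of which 59 were measured. Papillary against reticular cells had 6 called higher and 19 lower of the 59 (all genes 13.9% and 13.6%), with a median difference of -0.07 beside -0.01 over all genes. The counts were 11 and 17 for papillary against Dlk1+ Sca1+ cells (all genes 14.1% and 13.9%) and 12 and 13 for papillary against Dlk1- Sca1+ cells (13.1% and 13.3%). Dlk1+ Sca1+ against reticular cells had 6 higher and 11 lower (all genes 4.06% and 4.37%), Dlk1- Sca1+ against reticular cells 7 and 14 (9.36% and 8.80%), and Dlk1- Sca1+ against Dlk1+ Sca1+ cells 4 and 7 (3.23% and 4.13%). Medians over the 59 genes lay between -0.08 and 0.07. The counts of single lists that follow are to be read against the same shares of all genes.

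Of 18 other matricellular genes, 1 was called higher and 6 lower in papillary than in reticular cells, and 2 higher and 6 lower in Dlk1- Sca1+ than in reticular cells. Sparcl1, a close relative of Sparc, was lower in both Sca1+ populations than in reticular cells (-2.02 ± 0.12, limma adjusted p = 4.26e-07, and -1.90 ± 0.12, adjusted p = 2.65e-07), and papillary cells had more of it than Dlk1+ Sca1+ cells (1.96 ± 0.12, adjusted p = 4.03e-08). The testican gene Spock2 and the collagen-binding Tgfbi were, like Smoc2, lower in Dlk1- Sca1+ than in Dlk1+ Sca1+ cells, at -1.29 ± 0.18 (limma adjusted p = 0.000572) and -1.23 ± 0.12 (adjusted p = 4.15e-05). Lgals3, a galactoside-binding lectin, went the other way and was 2.74 ± 0.18 higher in Dlk1- Sca1+ than in reticular cells (limma adjusted p = 4.72e-07). Ccn2, a growth factor-regulated matricellular gene, was lower in papillary than in reticular cells (-0.91 ± 0.16, limma adjusted p = 0.000747), as was Ccn3 (-0.90 ± 0.14, adjusted p = 0.000254). Comp, the cartilage thrombospondin, was called in none of the 6 pairs. Its means of 4.81 to 4.95 lay below the array medians, where differences are understated, so equal levels are not shown.

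Of 17 receptor genes, papillary cells had 3 called higher and 5 lower than Dlk1+ Sca1+ cells (all genes 14.1% and 13.9%), and 3 and 5 against Dlk1- Sca1+ cells (all genes 13.1% and 13.3%). Cd36, a thrombospondin receptor and fatty acid transporter, differed by -3.26 ± 0.18 between papillary and Dlk1+ Sca1+ cells (limma adjusted p = 2.34e-08). It was higher in Dlk1+ Sca1+ (3.31 ± 0.18, limma adjusted p = 3.94e-07) and Dlk1- Sca1+ cells (4.02 ± 0.18, adjusted p = 2.03e-08) than in reticular cells. Cd47, also bound by thrombospondins, differed by 0.28 ± 0.07 between Dlk1- Sca1+ and reticular cells (limma adjusted p = 0.0171). Itga8, an integrin subunit that pairs with Itgb1 and binds Tnc, was lower than in reticular cells in both Sca1+ populations (-2.79 ± 0.16, limma adjusted p = 4.20e-07, and -2.94 ± 0.16, adjusted p = 8.17e-08). Itga4 was higher in papillary than in reticular cells (2.26 ± 0.12, limma adjusted p = 1.53e-08), and Egfr was lower (-2.45 ± 0.18, adjusted p = 3.32e-07).

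Among 7 measured genes of vitamin K-dependent carboxylation and mineralisation, the setting in which Mgp acts, 0 were called higher and 1 lower in papillary than in reticular cells. That gene was Fam20c, a secretory pathway kinase (-0.43 ± 0.10, limma adjusted p = 0.00498). The carboxylase gene Ggcx, and Enpp1 and Alpl, were listed but not measured. Vkorc1, the vitamin K epoxide reductase, was lower in Dlk1- Sca1+ than in Dlk1+ Sca1+ cells by a small amount (-0.27 ± 0.07, limma adjusted p = 0.0251), and Phospho1 was higher in Dlk1- Sca1+ than in reticular cells (0.86 ± 0.15, adjusted p = 0.00124). Growth factors bound or activated by these proteins had 1 of 9 called higher and 6 lower in papillary than in reticular cells, with a list median of -0.78. Bmp7 (-1.79 ± 0.34, limma adjusted p = 0.00122), Vegfa (-1.27 ± 0.09, adjusted p = 3.51e-07) and Tgfb2 (-1.13 ± 0.11, adjusted p = 7.52e-06) were among those lower. Bmp4 was lower than in reticular cells in Dlk1+ Sca1+ (-1.36 ± 0.19, limma adjusted p = 0.000523) and Dlk1- Sca1+ cells (-1.72 ± 0.19, adjusted p = 3.14e-05).

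Of 8 collagen and fibronectin partners, 6 were not called between papillary and reticular cells, 1 was higher and 1 lower. Col1a2, a chain of type I collagen, was higher in papillary cells (0.73 ± 0.08, limma adjusted p = 1.98e-05), and Col12a1, a fibril-associated collagen, was lower (-0.50 ± 0.08, adjusted p = 0.000522). Dlk1+ Sca1+ and reticular cells had 0 of the 8 called by limma at this threshold. Fn1 was lower in Dlk1- Sca1+ than in Dlk1+ Sca1+ cells (-0.42 ± 0.07, limma adjusted p = 0.00182).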

How the data were processed

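Per the submitters' processing notes, the log2 values the authors deposited, 1 table for 12 Affymetrix arrays, came from RMA in affy, with no version or genome build named. RMA corrects background, normalizes arrays by quantiles and summarizes probes, and it understates differences of dim probe sets. Amplification for 21 cycles, after which 8 µg of cDNA entered labelling per the labels' protocols, can compress differences.

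Of 45141 probe sets, 104 controls were left out, 28898 had 1 gene symbol in the platform annotation, 551 had several and 15588 none. Entrez numbers tied 28689 of them to RefSeq genes. Each of 17097 genes was represented by its brightest probe set on average, and no further normalization or filter was applied. All arrays entered 1 linear model (limma 3.58.1 in R 4.3.3) with population as the factor, 8 residual and 4.475 prior degrees of freedom, tested on simulated data beforehand. Moderated tests were two-sided, with Benjamini-Hochberg adjustment over all genes in each comparison, and a gene was called at adjusted p under 0.05. Marker lists are means of log2 levels. Precision is limited by 3 arrays per population.

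The genes and lists were chosen with earlier results of these data known. Named were all members, up to 4 called genes per pathway list and comparison by size, and the 4 genes most correlated with each of Thbs4, Mgp and Smoc1. Comp was named besides as a thrombospondin, after its values were seen. Arrays with 1 replicate number came from 1 animal, per the labels. Their deviations from population means correlated over genes with a mean r of 0.266 (0.086 to 0.432, above 0.1 in 17 of 18 pairs), and a fit with the animal as a block was an alternative.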

Additional observations from a re-analysis of the deposited data

How the results depend on the processing

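Across 23 alternatives (another probe set rule, mean of probe sets, a filter on dim genes, an intensity trend, centring, repeated normalization, each pair fitted alone, the animal as a block, and each animal or array left out), the 27 tested differences of the members gave 618 values (Smoc1 has none under the filter). Of these, 590 kept their side of the threshold, 17 lost the call, 11 gained it and 0 called differences reversed. Among differences not called, the sign changed in 2 values of Smoc2, papillary against Dlk1+ Sca1+ cells. It also changed in 4 values of Tnc, Dlk1- Sca1+ against Dlk1+ Sca1+ cells. The lost calls were those of Thbs2, of Mgp between the Sca1+ populations and of Tnc between papillary and Dlk1- Sca1+ cells, with Thbs2 between papillary and Dlk1- Sca1+ cells reaching adjusted p = 0.296. The gained calls were of Smoc1 and Sparc. With the animal as a replicate block, calls between Dlk1- Sca1+ and Dlk1+ Sca1+ cells over all genes rose from 1258 to 1897. Under the block, members higher in papillary than Dlk1- Sca1+ cells went from 1 to 2, and genes higher in Dlk1+ Sca1+ than reticular cells from 694 to 1050.

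With animals or single arrays left out, members called between Dlk1- Sca1+ and Dlk1+ Sca1+ cells ranged from 3 to 6 (5 with all arrays), and were 3 without animal 1 or animal 2. Pathway genes called ranged from 9 to 17 for Dlk1+ Sca1+ against reticular cells, 13 to 21 for Dlk1- Sca1+ against reticular cells and 4 to 12 for Dlk1- Sca1+ against Dlk1+ Sca1+ cells. All genes called ranged from 498 to 1502, from 1681 to 3118 and from 532 to 1306 in the same order. Without the Dlk1+ Sca1+ array of animal 3 alone, 7 pathway genes were called between Dlk1- Sca1+ and Dlk1+ Sca1+ cells, where 11 were with all arrays, and 908 genes were called between Dlk1+ Sca1+ and reticular cells, where 1441 were. Without the papillary array of animal 1, papillary cells had 6 members called against each Sca1+ population, as with all arrays. Leaving out an animal leaves 2 arrays per population. Sparc near the top of the scale and Smoc1 near its low end are limited by signal.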

Other observations

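Genes that ran most like the remaining members over the 12 arrays were read after their values were seen, as values without a test. Thbs2 ran most like Lox, which encodes the collagen cross-linking enzyme lysyl oxidase, with Pearson r = 0.991 and, after the population means were taken off, r = 0.898. Lox had a mean of 10.91 in papillary cells, 11.72 in reticular cells, 11.91 in Dlk1+ Sca1+ cells and 11.25 in the Dlk1- Sca1+ population. Thbs3 ran most like Agtr2, an angiotensin receptor gene, with r = 0.995, and here the r of deviations within populations was 0.122. Agtr2 had means of 4.78, 11.20, 11.46 and 9.98 in the same order of populations. Postn ran most like Deptor, with r = 0.993 and 0.830 within populations, followed by Kcnq1ot1 (r = 0.990) and Epha3 (0.989). At rank 4 was Ltbp2, a microfibril-associated protein gene, with r = 0.988 and 0.514 within populations. The 0.898 of Thbs2 and Lox is 1 value over the deviations of all 12 arrays, and Lox was picked on these same arrays.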
